A study of Mus musculus with 5 samples.

Results

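A set of 39 genes that build and run the skeletal muscle fibre was followed in brown adipose tissue (BAT) of cold-exposed mice. The genes were taken by name, for the filaments and Z-discs of the sarcomere, calcium handling, energy supply and protein turnover of muscle, out of 52022 genes of the annotation that had a matched transcript. Interscapular BAT came from 3 ATF4 BKO mice, which carry floxed Atf4 alleles (Atf4 fl/fl) and a Cre transgene under the Ucp1 promoter, Tg(Ucp1-cre)1Evdr, and from 2 WT littermates, which carry the floxed alleles without Cre. All mice were labelled male, were 10 to 12 weeks old on a C57Bl/6J background, and were acclimated at 30 °C and then kept at 4 °C for 3 days with food at will. The Ucp1 promoter drives Cre in thermogenic adipocytes, and Atf4 of muscle fibres in these mice was not measured here. Each mouse gave 1 library, of 24698337, 27578833 and 31558111 estimated counts in ATF4 BKO replicates 1, 2 and 3 and of 30996438 and 32452751 in WT replicates 1 and 2. Nothing states that the mice came from separate litters, so p-values measure the spread between these mice alone.

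Skeletal muscle shortens when myosin of the thick filaments pulls on actin of the thin filaments within the sarcomere, a unit bounded by Z-discs and spanned by titin. Calcium released from the sarcoplasmic reticulum binds troponin C and opens the thin filament to myosin, and a calcium pump then refills the reticulum. Slow and fast fibres use different genes for the same position in the filament. Slow fibres carry the myosin heavy chain of Myh7, and fast fibres carry those of Myh2 (type IIA), Myh1 (type IIX) or Myh4 (type IIB). Brown adipocytes share a developmental origin with skeletal muscle, and interscapular BAT lies on muscles of the back.

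The targeted gene followed the labels. Atf4 was at 22.1, 40.5 and 16.4 TPM (a transcript level scaled for length and for the library total) in ATF4 BKO replicates 1, 2 and 3, and at 227 and 188 TPM in WT replicates 1 and 2. In counts it held 739, 1478 and 697 against 9028 and 7674, with no overlap between the genotypes. Of the sex-linked genes, Xist had 4598 counts in ATF4 BKO replicate 1, and 0, 1, 7 and 2 counts in ATF4 BKO replicates 2 and 3 and WT replicates 1 and 2. From the Y chromosome, Uty, Kdm5d, Eif2s3y and Ddx3y summed to 34 counts in ATF4 BKO replicate 1 and to between 3284 and 4476 in each other library, which goes against the male label of that mouse. The main counts and fitted differences of the muscle genes are therefore also given without this library. Sample names carry the prefix S1 (ATF4 BKO replicates 1 and 2, WT replicate 1) or S2 (ATF4 BKO replicate 3, WT replicate 2), whose meaning is not given.

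The muscle genes were far more abundant in WT replicate 2 than in any other library. Their TPM summed to 110, 122 and 115 in ATF4 BKO replicates 1, 2 and 3, to 256.5 in WT replicate 1 and to 2879 in WT replicate 2. As a share of all gene counts they held 0.00688% (95% Wilson interval 0.00656 to 0.00722), 0.0101% (0.00973 to 0.0105) and 0.00707% (0.00678 to 0.00737) in the ATF4 BKO libraries, 0.0234% (0.0229 to 0.024) in WT replicate 1 and 0.344% (0.342 to 0.346) in WT replicate 2. These intervals, and those that follow, cover counting error only. Both WT libraries lay above the ATF4 BKO libraries, and the gap between the WT libraries was wider than that between WT replicate 1 and the highest ATF4 BKO library.

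All 39 genes had their highest CPM (counts scaled to the library total after TMM normalization, with no correction for length) in WT replicate 2, and 35 had their next highest in WT replicate 1 (31 in TPM). In TPM, too, all 39 were highest in WT replicate 2, beside 4684 of the 16450 genes tested. Among the ATF4 BKO libraries, replicate 2 was highest for 29 of them. The number of genes with 0 counts was 8, 3 and 12 in ATF4 BKO replicates 1, 2 and 3 and 0 in each WT library. In the ATF4 BKO libraries 24, 12 and 24 genes stayed under 10 counts, against 4 in WT replicate 1 and 0 in WT replicate 2. A count of 3, taken as the lowest level that could be told from 0, equals 0.132, 0.107, 0.101, 0.0949 and 0.0885 CPM in the 5 libraries in this order, so the levels of many genes in ATF4 BKO BAT were not measurable at this depth. In bulk tissue, fewer muscle cells and less RNA per muscle cell cannot be told apart.

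**Figure D1:**
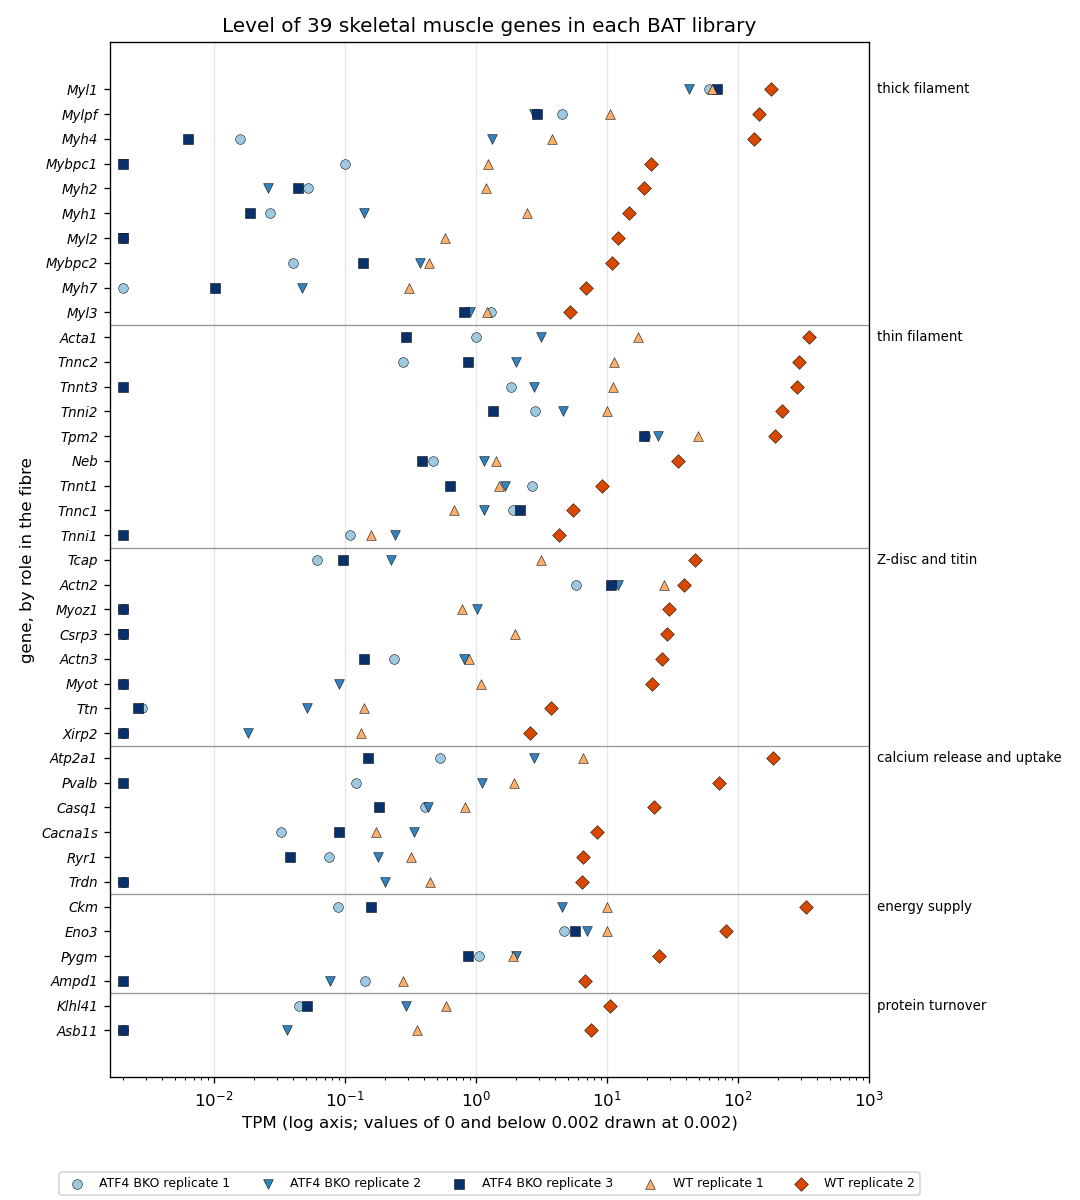
TPM of each of the 39 genes (log axis) in the 5 libraries, 1 point per library, ordered by role and by the level in WT replicate 2. WT replicate 2 lies to the right of every other library for all 39 genes, while Myl1, Tpm2, Actn2 and Eno3 keep levels of several TPM or more in the ATF4 BKO libraries.

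The genes with the highest TPM in WT replicate 2 were Acta1, Ckm and Tnnc2, and the bases upstream of their RefSeq starts are shown because they stand for genes that varied together across the libraries. Sequences are from the RefSeq promoter table of GRCm38.p6, from 250 bases before the start up to the start, at chr8:123894776-123895025 on the minus strand for Acta1, chr7:19410844-19411093 on the plus strand for Ckm and chr2:164779735-164779984 on the minus strand for Tnnc2. Capitals mark matches to the E-box (CANNTG, bound by myogenic bHLH factors), the CArG box (bound by SRF) or the MEF2 motif, searched on both strands.
Acta1: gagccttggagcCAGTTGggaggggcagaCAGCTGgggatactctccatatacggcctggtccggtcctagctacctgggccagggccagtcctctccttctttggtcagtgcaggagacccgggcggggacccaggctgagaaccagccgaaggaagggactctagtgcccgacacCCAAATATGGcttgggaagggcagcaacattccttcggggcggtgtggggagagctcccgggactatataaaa
Ckm: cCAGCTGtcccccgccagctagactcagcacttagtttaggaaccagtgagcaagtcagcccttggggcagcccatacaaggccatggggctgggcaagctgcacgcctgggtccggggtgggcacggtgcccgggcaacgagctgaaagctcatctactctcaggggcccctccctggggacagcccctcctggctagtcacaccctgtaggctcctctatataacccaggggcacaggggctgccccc
Tnnc2: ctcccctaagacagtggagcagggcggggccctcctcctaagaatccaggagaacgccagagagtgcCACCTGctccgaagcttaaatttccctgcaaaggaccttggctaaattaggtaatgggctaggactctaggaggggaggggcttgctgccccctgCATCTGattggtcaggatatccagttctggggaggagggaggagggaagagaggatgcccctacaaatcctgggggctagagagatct

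In GENCODE M21 on GRCm38 the genes span chr8:123891769-123894751 (Acta1), chr7:19404776-19422841 (Ckm) and chr2:164777161-164779967 (Tnnc2), so the Acta1 window lies upstream of the annotated gene, the Ckm window lies inside it, and the Tnnc2 window lies mostly inside it. Acta1 had 2 E-boxes and 1 CArG box, which began 73 bases before the start, Ckm had 1 E-box, and Tnnc2 had 2 E-boxes. The table held 35 windows of 30 of the 39 genes, each from 250 bases before to 50 bases after a start. The E-box was in 88.6% of them and in 72.3% of all 32851 windows, and the MEF2 motif was in 17.1% and 3.19%. The windows with a MEF2 motif belonged to Klhl41, Myh1, Myh4, Pvalb, Ttn and Xirp2. The CArG box was in 8.57% (Acta1, Myh4 and Myl3) and in 1.63% of all windows. The TATA box, searched as TATAAA and able to overlap the MEF2 motif, was in 20% and 13.6%. These are matches of letters and were not tested.

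Of the thick filament genes, Myh4, which encodes the fastest adult myosin heavy chain, had 2, 183 and 1 counts in ATF4 BKO replicates 1, 2 and 3, 572 in WT replicate 1 and 20492 in WT replicate 2, or 0.0158, 1.33, 0.00632, 3.80 and 132 TPM. Myh1, the type IIX chain, was at 0.0266, 0.140 and 0.0189 TPM in the ATF4 BKO libraries and at 2.44 and 14.65 TPM in the WT libraries. Myh2, the type IIA chain, was at 0.0525, 0.0257 and 0.0434 TPM against 1.19 and 19.2 TPM. In all 3 fast chains every ATF4 BKO library lay below both WT libraries in TPM, beside 24.9% of all genes tested. Of them, Myh2 reached 10 counts in the WT libraries alone. ATF4 BKO replicate 2 was nearest to WT for Myh4 and Myh1 but not for Myh2. Myh7, the slow chain, was at 0, 0.0473 and 0.0101 TPM against 0.307 and 6.93 TPM, again without overlap. Like Myh2, it reached 10 counts in the WT libraries alone. The 3 fast genes lie side by side on the plus strand, Myh2 at chr11:67171027-67197517, Myh1 at chr11:67200052-67224575 and Myh4 at chr11:67238029-67260446, and Myh7 lies at chr14:54970684-54994626 on the minus strand. The embryonic and neonatal chains of regenerating fibres, Myh3 and Myh8, reached at most 0.00791 and 0.0233 TPM in any library, and the extraocular chain Myh13 was listed above 0 in WT replicate 2 alone, at 0.0857 TPM.

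The mixture of the 4 adult chains differed between the WT libraries. In WT replicate 2, Myh4 made up 76.4% of their summed TPM, Myh2 11.1%, Myh1 8.47% and Myh7 4.01%, from 26302 counts. In WT replicate 1, Myh4 made up 49.1%, Myh1 31.6%, Myh2 15.4% and Myh7 3.96%, from 1152 counts. In counts, Myh1 held 32.0% (95% exact interval 29.3 to 34.8) in WT replicate 1 and 8.33% (8.00 to 8.68) in WT replicate 2, so its share differed by more than counting error, while the intervals of Myh7 overlapped, at 2.60% (1.76 to 3.70) and 2.46% (2.27 to 2.65). ATF4 BKO replicate 2 had 210 counts of the 4 chains, of which Myh4 held 87.1% (81.9 to 91.4) and Myh1 9.05% (5.54 to 13.8). Its Myh4 share lay above that of both WT libraries beyond counting error. ATF4 BKO replicates 1 and 3 had 12 counts each, with 7 counts of Myh2 in each, too few to order the chains. Close relatives limit these shares: 42.9%, 34.5% and 30.4% of the 31-base words of Myh1, Myh2 and Myh4 occur in other genes, mostly in each other, and 27.9% of those of Myh7, mostly in the cardiac chain Myh6. Myh6 itself was at or below 0.0497 TPM in every library.

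**Figure D2:**
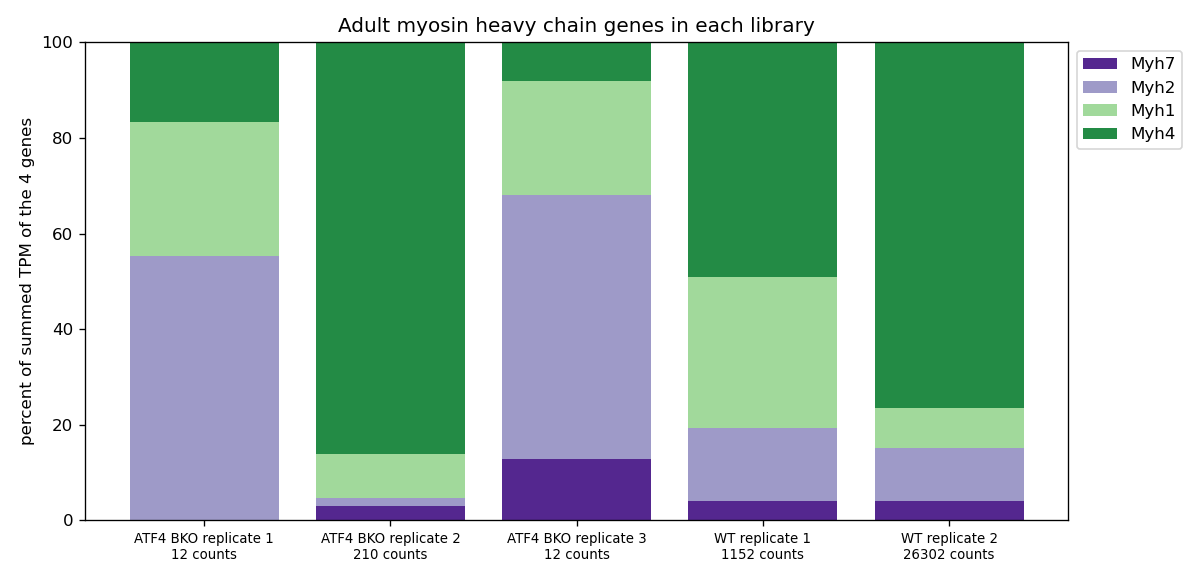
Shares of Myh7, Myh2, Myh1 and Myh4 in the summed TPM of these 4 genes, as stacked bars for each library with the summed counts below each bar. Myh4 is the largest part in WT replicate 2, WT replicate 1 and ATF4 BKO replicate 2, and the bars of ATF4 BKO replicates 1 and 3 rest on 12 counts each.

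The fast regulatory light chain Mylpf was at 4.49, 2.78 and 2.90 TPM in the ATF4 BKO libraries and at 10.6 and 144 TPM in the WT libraries. Its slow counterpart Myl2 had 0 counts in all 3 ATF4 BKO libraries, 7 in WT replicate 1 and 93 in WT replicate 2, and did not pass the filter for testing. The regulatory light chains thus showed the order of the heavy chains, with WT replicate 2 highest and WT replicate 1 next. Mybpc1, the slow form of myosin-binding protein C, had 1, 0 and 0 counts against 98 and 1493, and the fast form Mybpc2 had 3, 30 and 2 counts against 37 and 996. For Mybpc2 the highest ATF4 BKO library (0.370 TPM) came close to WT replicate 1 (0.435 TPM). The essential light chain genes stood apart. Myl1 was at 60.0, 42.0 and 68.5 TPM in ATF4 BKO BAT (56.9 ± 13.5, SD, n = 3, and 55.3 ± 18.8, n = 2, without replicate 1), at 63.0 TPM in WT replicate 1 and at 179 TPM in WT replicate 2, so WT replicate 1 lay within the ATF4 BKO range. Myl3, the slow and ventricular essential chain, overlapped too, at 1.29, 0.891 and 0.805 TPM against 1.20 and 5.24 TPM.

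In the thin filament, Acta1, the skeletal muscle alpha-actin, was at 0.993, 3.15 and 0.289 TPM in ATF4 BKO replicates 1, 2 and 3 (1.48 ± 1.49, SD, n = 3, and 1.72 ± 2.03, n = 2, without replicate 1), at 17.2 TPM in WT replicate 1 and at 345 TPM in WT replicate 2. The WT libraries differed from each other more than WT replicate 1 did from the highest ATF4 BKO library. The fast troponin T gene Tnnt3 was at 1.85, 2.76 and 0 TPM against 11.02 and 280.5 TPM. Fast troponin I, Tnni2, was at 2.82, 4.62 and 1.33 TPM against 9.99 and 217 TPM. Tnnc2, fast troponin C, was at 0.274, 2.00 and 0.867 TPM against 11.3 and 289 TPM. The 3 fast troponin genes were all lower in every ATF4 BKO library than in both WT libraries, beside 24.9% of all genes tested in TPM. Of the words of Tnnc2, 59.0% also occur in its neighbour Ube2c, so the level of Tnnc2 is less certain than those of Tnnt3 and Tnni2, which share none. Nebulin, Neb, which lines the thin filament, was at 0.466, 1.15 and 0.383 TPM against 1.41 and 34.8 TPM. Here the highest ATF4 BKO library was near WT replicate 1.

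The slow troponin genes behaved differently in the libraries with little muscle RNA. Slow troponin C, Tnnc1, which the heart also uses, was at 1.91, 1.15 and 2.16 TPM in the ATF4 BKO libraries, above the 0.673 TPM of WT replicate 1 and below the 5.45 TPM of WT replicate 2. Slow troponin T, Tnnt1, was at 2.66, 1.67 and 0.631 TPM against 1.497 and 9.21 TPM. Neither gene kept the genotypes apart. Slow troponin I, Tnni1, had 2, 2 and 0 counts against 4 and 104 counts, too few to be tested.

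Slow and fast forms that fill the same position were therefore set against each other within each library. In troponin C the slow gene held 87.5% (95% exact interval 67.6 to 97.3), 35.1% (20.2 to 52.5) and 84.8% (68.1 to 94.9) of the counts of its pair in ATF4 BKO replicates 1, 2 and 3, and 7.32% (3.40 to 13.4) and 2.48% (1.96 to 3.10) in WT replicates 1 and 2. In troponin T the slow share was 46.7% (31.7 to 62.1), 31.9% (21.2 to 44.2) and 100% (73.5 to 100) in ATF4 BKO and 5.53% (2.89 to 9.46) and 2.99% (2.57 to 3.46) in WT. For these 2 pairs every ATF4 BKO interval lay above both WT intervals. In troponin I it did not: the slow share was 10%, 3.28% and 0% in ATF4 BKO, from 20, 61 and 15 counts of the pair, and 2.82% and 3.31% in WT, with overlapping intervals. For the essential light chains the slow share lay between 1.08% and 3.20% of counts in every library. For the regulatory light chains it was 0% in the ATF4 BKO libraries, from 18, 37 and 28 counts, 5.07% (2.06 to 10.2) in WT replicate 1 and 4.69% (3.80 to 5.72) in WT replicate 2. Myosin-binding protein C was the pair in which the slow gene prevailed in WT, at 72.6% (64.2 to 79.9) and 60.0% (58.0 to 61.9) of counts. In ATF4 BKO replicate 2 its slow share was 0 of 30 counts, with an upper bound of 11.6%, below both WT libraries. Over all 6 pairs in summed TPM, the slow genes held 8.03%, 6.77% and 4.65% in ATF4 BKO and 4.79% and 4.91% in WT, a sum in which Myl1 weighs most in the ATF4 BKO libraries. In counts the same share was 7.02%, 5.80% and 4.32% in ATF4 BKO and 8.40% and 10.4% in WT. In counts every ATF4 BKO share thus lay below both WT shares, and in TPM the genotypes overlapped. The count intervals of ATF4 BKO replicates 1 (5.41 to 8.93) and 2 (4.32 to 7.59) overlapped that of WT replicate 1 (7.135 to 9.81). Most slow counts in WT came from Mybpc1 alone, 98 of 145 in WT replicate 1 and 1493 of 2038 in WT replicate 2. Counts are not corrected for length, so the order in counts does not hold for the slow genes in general.

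**Figure D3:**
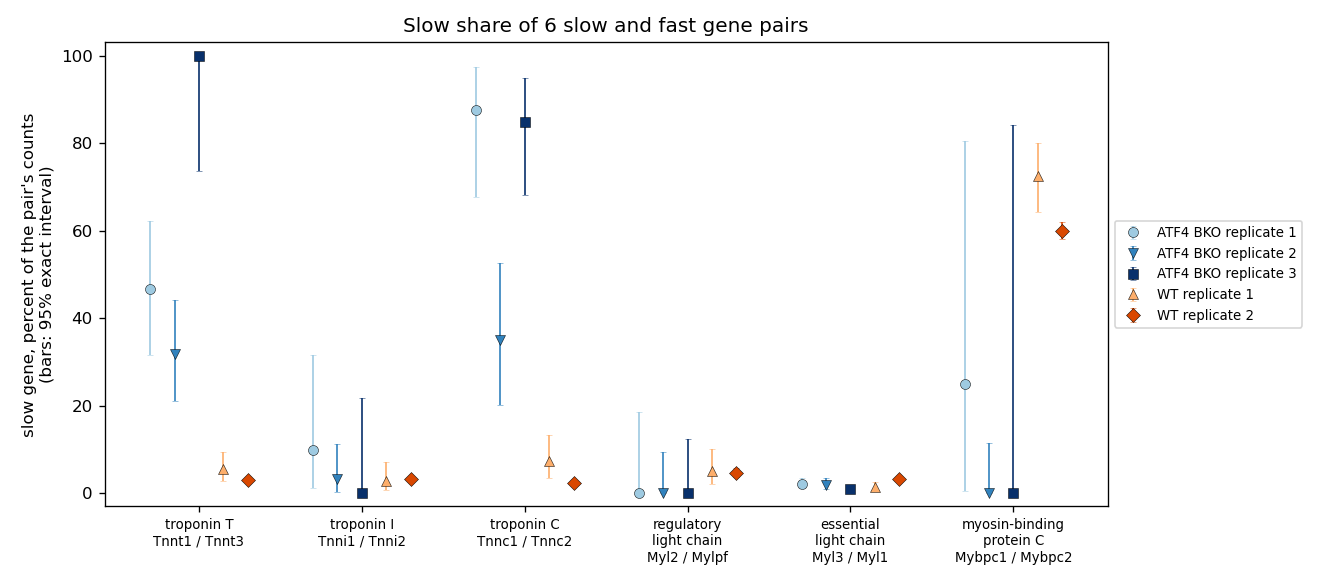
Slow gene as a percent of the counts of each of 6 slow and fast gene pairs, with 1 point per library and 95% exact binomial intervals. The ATF4 BKO libraries lie above the WT libraries for troponin T and troponin C, and intervals overlap between the genotypes for troponin I and the regulatory light chains.

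Among Z-disc and titin genes, Csrp3, which encodes the muscle LIM protein, had 0 counts in all 3 ATF4 BKO libraries, 32 in WT replicate 1 and 448 in WT replicate 2. Taking 3 counts per library as the floor (0.113 CPM on average over the ATF4 BKO libraries), it was at least 62.7-fold lower in ATF4 BKO than in WT on mean CPM. The bound rests on WT replicate 2: against WT replicate 1 alone it was at least 8.93-fold lower. Tcap, the titin cap telethonin, had 1, 4 and 2 counts against 61 and 935. These genes were close to absent from ATF4 BKO BAT at this depth. Ttn, the giant spring of the sarcomere, was at 0.0028, 0.0516 and 0.00265 TPM against 0.139 and 3.75 TPM. Myot (myotilin) and Xirp2 had at most 4 and 5 counts in an ATF4 BKO library, against 57 and 41 in WT replicate 1 and 1136 and 808 in WT replicate 2. Myoz1, the fast Z-disc protein calsarcin, had 0, 13 and 0 counts against 22 and 719, and the fast alpha-actinin Actn3 had 5, 35 and 6 counts against 56 and 1694. In these last genes ATF4 BKO replicate 2 stood near WT replicate 1, and in TPM Myoz1 was higher in ATF4 BKO replicate 2 (1.02) than in WT replicate 1 (0.775). Actn2, the other sarcomeric alpha-actinin, was at 5.76, 12.1 and 10.6 TPM against 27.4 and 38.6 TPM. Its WT libraries lay 1.41-fold apart in TPM, against 29.9-fold for Actn3.

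Of the calcium genes, Atp2a1, the pump of the fast-fibre reticulum, was at 0.529, 2.78 and 0.150 TPM in the ATF4 BKO libraries and at 6.49 and 184 TPM in the WT libraries. Pvalb, the calcium buffer parvalbumin of fast fibres, was at 0.121, 1.12 and 0 TPM against 1.94 and 71.2 TPM. Casq1, which stores calcium in the reticulum, was at 0.404, 0.426 and 0.182 TPM against 0.825 and 22.9 TPM. All 3 were lower in every ATF4 BKO library than in either WT library, beside 24.9% of all genes tested in TPM. The release channel Ryr1, its voltage sensor Cacna1s and the anchoring protein Trdn were at most 0.177, 0.335 and 0.203 TPM in an ATF4 BKO library, and at 6.58, 8.34 and 6.40 TPM in WT replicate 2. In WT replicate 1 they were at 0.317, 0.171 and 0.447 TPM, so for Cacna1s the highest ATF4 BKO library exceeded WT replicate 1 in TPM.

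Of the energy genes, Ckm, the muscle creatine kinase that buffers ATP, was at 0.0885, 4.56 and 0.156 TPM in the ATF4 BKO libraries, at 9.94 TPM in WT replicate 1 and at 330 TPM in WT replicate 2. Eno3, muscle enolase, kept a higher floor, at 4.71, 6.96 and 5.72 TPM against 10.03 and 80.8 TPM. Pygm, the muscle glycogen phosphorylase, was at 1.05, 2.03 and 0.867 TPM against 1.90 and 25.01 TPM. Relative to its mean level, Ckm thus varied most among the ATF4 BKO mice and Eno3 least. Ampd1, the muscle AMP deaminase, had 4, 2 and 0 counts against 7 and 294 and was not tested. Klhl41 and Asb11, substrate adaptors of ubiquitin ligases in muscle, had 2, 16 and 3 counts against 36 and 655, and 0, 1 and 0 counts against 11 and 239.

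Myl1, Tpm2 and Actn2, which kept a level of their own in ATF4 BKO BAT, were also read by transcript. Of Myl1, the transcript Myl1-202 held a similar share in all 5 libraries, 79.8%, 75.6% and 78.1% of the TPM in the ATF4 BKO libraries and 81.3% and 80.7% in WT. Of Tpm2, which encodes beta-tropomyosin of slow and fast fibres and of smooth muscle, Tpm2-203 was at 18.6, 22.7 and 16.5 TPM in ATF4 BKO, 43.7 in WT replicate 1 and 60.5 in WT replicate 2. Its transcript Tpm2-202 was at 0.322, 0.992 and 0 TPM against 5.42 and 71.1 TPM. Both transcripts were highest in WT replicate 2 and next highest in WT replicate 1. The WT libraries lay 13.1-fold apart for Tpm2-202 and 1.38-fold apart for Tpm2-203. Of Actn2, the 501-base transcript Actn2-205 held 92.0%, 93.0% and 94.7% of the TPM in ATF4 BKO, 88.8% in WT replicate 1 and 48.9% in WT replicate 2. Without Myl1, Tpm2 and Actn2 the other genes summed to 24.6, 43.5 and 17.1 TPM in ATF4 BKO and to 116.5 and 2472 TPM in WT. Of the words of Myl1, 14.5% also occur in Mylf-ps, a pseudogene.

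The WT libraries were also compared gene by gene. The median ratio of WT replicate 2 to WT replicate 1 over the 39 genes was 19.6-fold in CPM, with quartiles of 13.6 and 25.5. For 32 genes the ratio lay between 10 and 40, and for all 39 its 95% exact counting interval lay above 1. The interval covers counting error only, and a pair of mice gives no estimate of how a gene's ratio varies between animals. The lowest ratios were 2.86 for Myl1, 3.64 for Actn2, 3.66 for Tpm2, 5.54 for Myh1 (4.96 to 6.20), 6.03 for Myl3, 7.58 for Eno3 and 7.77 for Tnnc1. Ampd1 had the highest, 39.2 (18.8 to 98.2). In TPM, Actn2 had the lowest, 1.41, and Cacna1s the highest, 48.8, and the ratios of 5 genes moved by over 1.5 times, namely Actn2, Tnnt1 (6.15), Trdn (14.3), Myl2 (20.8) and Ampd1 (24.6). Myh4 was at 33.4-fold (30.7 to 36.4), Myh7 at 20.1-fold (13.9 to 30) and Myh2 at 15.3-fold (13.2 to 17.9). The median ratio in CPM was 24.6-fold over the 14 fast-fibre genes, 13.7-fold over the 7 slow-fibre genes and 18.7-fold over the 18 genes that fibres of both types use. The ratios ran from 2.86 to 36.2 over the fast-fibre genes and from 6.03 to 24.2 over the slow-fibre genes, so they overlapped. Of the slow-fibre genes, Myl3, Tnnt1 and Tnnc1 also overlapped between the genotypes, as did Myl1 of the fast-fibre genes. These medians are descriptions of a pair of mice, with no replicate of the comparison.

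**Figure D4:**
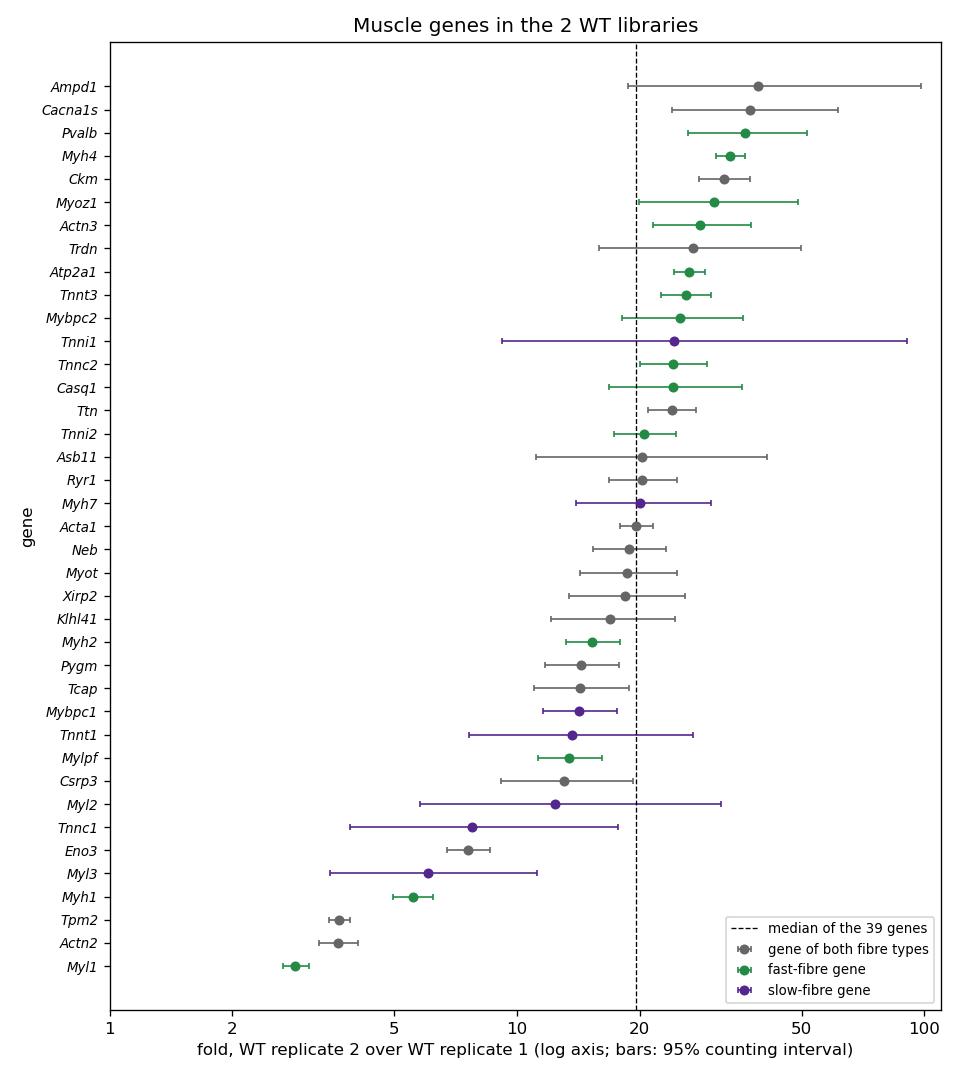
Ratio of WT replicate 2 to WT replicate 1 for each of the 39 genes in TMM-scaled CPM (log axis), coloured by fibre type, with 95% exact counting intervals and the median of 19.6-fold as a dashed line. All intervals lie above 1, and the lowest ratios belong to Myl1, Actn2, Tpm2 and Myh1.

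Across the 39 genes, the levels of WT replicate 1 followed those of WT replicate 2 with a Pearson correlation of 0.882 on log2(TPM + 0.1). The correlation with WT replicate 2 was 0.714 in ATF4 BKO replicate 2, 0.486 in ATF4 BKO replicate 1 and 0.415 in ATF4 BKO replicate 3. These values are across genes, which are not independent replicates, and the libraries with the lowest values had the most genes at or near 0 counts. In ATF4 BKO replicate 2 the gene profile was thus nearer to that of WT replicate 2 than in the other ATF4 BKO libraries, as were the Myh4 and Ckm levels.

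The quasi-likelihood test of edgeR was run on genotype over the 16450 genes that reached 10 counts in 2 or more libraries, which 36 of the 39 muscle genes passed. Of these, Myh2, Myh7, Mybpc1, Csrp3, Tcap, Myot, Asb11, Trdn and Xirp2 reached 10 counts in the WT libraries alone, so that the filter itself required them to be higher in WT. At an adjusted p under 0.05, 0 muscle genes were called, in a comparison that called 1 gene in all (0.00608%). At an unadjusted p under 0.05 edgeR listed 32 of the 36, against 860 of all genes tested. The 32 include every gene kept by the WT libraries alone. Of the other 27, all but Myl1, Myl3, Tnnt1 and Tnnc1 were listed. The smallest adjusted p of a muscle gene was 0.671 and the largest 0.942. DESeq2, the other count test, called 15 muscle genes lower in ATF4 BKO and 0 higher, and 100 genes lower in all (0.608% of those tested). They were Myh2, Myh1, Myh7, Mybpc1 and Mylpf of the thick filament, Acta1, Tnnc2, Tnni2 and Tpm2 of the thin filament, Actn2, Tcap and Ttn of the Z-disc and titin, Casq1 and Ryr1 of calcium handling, and Asb11. Of the 15, Myh2, Myh7, Mybpc1, Tcap and Asb11 are among the genes kept by the WT libraries alone, which leaves 10 calls without them. The calls depended on which mice were in the fit. DESeq2 called 121 genes in all with every mouse. It called 8 muscle genes and 120 genes in all without ATF4 BKO replicate 1, the library with Xist. Besides Myh2, Myh7, Mybpc1, Tcap and Asb11, kept by the WT libraries alone, it then called Actn2, Myh1 and Tpm2. Without WT replicate 2 it called 5 muscle genes, namely Acta1, Actn2, Myh1, Mylpf and Tpm2, while the calls over all genes went up to 531. It called 20 muscle genes without ATF4 BKO replicate 2, 7 without ATF4 BKO replicate 3 and 19 without WT replicate 1, beside 205, 56 and 74 genes in all. Of the 20, only Acta1, Actn2, Ckm, Mylpf, Tnni2, Tpm2, Atp2a1 and Ryr1 had 10 counts in ATF4 BKO replicate 1 or 3. Of the 7, only Actn2, Myh1 and Tpm2 had 10 counts in ATF4 BKO replicate 1 or 2. The filter kept the others of the 20 and the 7 through the WT libraries alone. Without either WT mouse 27 muscle genes were tested, and 36 otherwise. Fits without a WT mouse leave 1 WT mouse, which is assumed to vary like the ATF4 BKO mice. An exact permutation test of a single gene cannot go below p = 0.1 with 3 and 2 mice.

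The fitted differences (log2, ATF4 BKO minus WT) were wide and imprecise. The median over the 27 muscle genes with 10 counts in an ATF4 BKO library was -5.36 (-5.16 without ATF4 BKO replicate 1), beside 0.0077 over all genes tested. Over all 36 tested, with the 9 whose sign the filter fixed, it was -6.14 (-6.02 with Csrp3 at its bound, and -5.70 without ATF4 BKO replicate 1). For Acta1 it was -6.63 (SE 1.40, edgeR adjusted p 0.704, DESeq2 adjusted p 0.00596). For Myh1 it was -6.93 (SE 1.00, edgeR adjusted p 0.671, DESeq2 adjusted p 6.58e-05) and for Myh4 -7.11 (SE 2.02, edgeR adjusted p 0.831, DESeq2 adjusted p 0.244). The gene with the larger difference thus had the larger error, since Myh4 varied more among mice of 1 genotype. Actn2 and Tpm2 had smaller and more precise differences, of -2.92 (SE 0.55) and -2.41 (SE 0.50). Without ATF4 BKO replicate 1 the differences by edgeR were -6.48 (SE 1.82) for Acta1, -6.62 (SE 1.24) for Myh1, -6.58 (SE 2.35) for Myh4, -2.72 (SE 0.65) for Actn2 and -2.41 (SE 0.63) for Tpm2. DESeq2 then still called Myh1, Actn2 and Tpm2 and no longer called Acta1 (adjusted p 0.0844). Myl1, Myl3, Tnnt1 and Tnnc1 were at -0.94, -1.71, -1.99 and -0.69, none of them called by edgeR or DESeq2. Within sample names of prefix S1 the median difference of the 27 genes was -1.29 (0.015 over all genes tested), and within S2, with 1 mouse of each genotype, it was -7.15 (-0.032 over all genes). Of the 27, 24 were lower in ATF4 BKO within S1, beside 48.6% of all genes, and 27 within S2, beside 53.9%. Within S1 without ATF4 BKO replicate 1, the median was -0.89 and 25 were lower, beside 49.8% of all genes. Without WT replicate 2 the median over the same 27 genes was -1.96. The median was therefore negative without the library in which muscle RNA was highest too, at a much smaller size.

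In CPM, 35 of the 39 genes, and 32 of the 36 tested, were lower in every ATF4 BKO library than in both WT libraries, beside 10.6% of all genes tested. The 2 figures are not on equal terms, because 9 of the 32 passed the filter with 10 counts in the WT libraries alone, which by itself puts them higher in WT. Of the 27 tested genes with 10 counts in an ATF4 BKO library, 23 were lower in every ATF4 BKO library. The exceptions were Myl1, Myl3, Tnnt1 and Tnnc1. No gene of the set was higher in every ATF4 BKO library than in both WT libraries, beside 8.95% of all genes tested. In TPM, 20 of these 27 were lower in every ATF4 BKO library, beside 24.9% of all genes tested. The share over all genes was higher with a mouse left out and stands beside each count. In CPM, 24, 23 and 23 of the 27 were lower without ATF4 BKO replicates 1, 2 and 3, beside 16.4%, 22.3% and 15.2% of all genes. Without ATF4 BKO replicate 2, Actn3, Myh1, Myh4, Mybpc2, Tnnc2, Casq1, Pvalb, Ttn, Myoz1, Cacna1s and Klhl41 reached 10 counts in the WT libraries alone. The filter then fixed their sign too, so that count is not on equal terms with the share of all genes. Without WT replicate 1 the count was 27, beside 19.7%, and without WT replicate 2 it was 23, beside 29.3%.

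Further skeletal muscle genes, 54 in number and outside the set, showed the same order of libraries with a smaller spread. They summed to 107, 130 and 122 TPM in ATF4 BKO and to 204 and 579 TPM in WT, with desmin, Des, the most abundant in every library. Of them 49 were highest in WT replicate 2 in TPM, beside 4684 of the 16450 genes tested. Of the 44 tested, 12 reached 10 counts in the WT libraries alone, so that the filter fixed their sign. Of the other 32, 31 had a negative fitted difference, beside 8025 of the 16450 genes tested, and their median was -1.25. Without ATF4 BKO replicate 1 the count was again 31 of 32 and the median -1.42. Over the 44, edgeR called 0 and DESeq2 called 13 lower and 0 higher, beside 0.608% of all genes called lower by DESeq2. Of the 13, Hrc, Klhl40, Myoz2, Cox6a2, Rpl3l and Eef1a2 were among the 12 kept by WT alone, and the other 7 were Myom2, Nrap, Ldb3, Des, Pgam2, Tmod4 and Txlnb. DESeq2 called 11, 14 and 7 of the 44 lower without ATF4 BKO replicates 1, 2 and 3, beside 67, 148 and 46 genes lower in all. Of the 32 still tested without a WT mouse, it called 17 without WT replicate 1 and 3 without WT replicate 2, beside 67 and 254 in all. Cox6a2, a muscle subunit of cytochrome oxidase, was at 0.0952, 0.613 and 0 TPM against 10.4 and 39.1 TPM, a WT ratio of 3.59 in CPM, under the median of 19.6 over the 39 genes and close to those of Actn2 and Tpm2. Des, an intermediate filament of all muscle types, was at 30.1, 46.2 and 36.2 TPM against 79.8 and 81.9 TPM, nearly level in WT.

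Factors of muscle formation were mostly near 0, apart from Mef2c. The transcription factors Myod1, Myf5 and Pax7 were listed above 0 only in WT replicate 2, at 0.113, 0.0996 and 0.0246 TPM. Myog, the factor of myoblast differentiation, was at 0.203 TPM there, at 0.0354 TPM in ATF4 BKO replicate 1 and at 0 in the others. Of the membrane proteins of myoblast fusion, Mymk was listed above 0 only there, at 0.0634 TPM, and Mymx was listed at 0 in all 5 libraries. Myf6, which adult fibres keep, was at 0 in the ATF4 BKO libraries, at 0.289 TPM in WT replicate 1 and at 1.66 TPM in WT replicate 2. Mef2c, a transcription factor that other cell types also use, was present in every library, between 3.12 and 6.79 TPM. Of 10 developmental and cardiac isoforms only Myl4 and Myh7b were abundant enough to be tested, and edgeR and DESeq2 called neither. Of 10 neuromuscular junction genes, Dok7, an adaptor of the synapse kinase MuSK, ran against the muscle genes in WT, with 7.60 TPM in WT replicate 1 and 0.982 in WT replicate 2, beside 0.122, 0.772 and 0.350 TPM in ATF4 BKO. Of the acetylcholine receptor subunit genes, Chrnb1 was at 2.47 to 3.70 TPM in every library, and Chrna1, Chrnd, Chrne and Chrng stayed at or below 0.133 TPM.

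Markers of the other cell types of the depot were measured in the same libraries. The 14 brown adipocyte markers summed to 23180, 22990 and 26050 TPM in ATF4 BKO and to 22660 and 25600 TPM in WT, so the libraries carried the defining markers of their labelled tissue at a similar level. Ucp1 alone was at 9427, 8039 and 9754 TPM against 8372 and 10070 TPM. The 10 smooth muscle markers, at 174, 201, 166, 199 and 153 TPM in the same order of libraries, were lowest in WT replicate 2, where the skeletal muscle genes were highest. The 6 endothelial markers summed to 288, 328, 364, 264 and 330.5 TPM. Macrophage markers were high in WT replicate 2 and low in WT replicate 1, at 715, 1366, 446, 207 and 1220 TPM over 8 genes with Lyz2 the most abundant, and were highest in ATF4 BKO replicate 2. The 6 red blood cell markers ran the other way in WT, at 3414, 5417, 3210, 9026 and 4828 TPM. Fibroblast markers summed to 337, 418, 158, 169 and 307 TPM and white adipocyte markers to 36.1, 64.3, 30.3, 54.6 and 69.6 TPM. Tendon markers summed to 1.32, 2.56, 0.594, 1.29 and 1.86 TPM, skin markers to 5.98, 3.38, 6.56, 5.97 and 4.18 TPM, Schwann cell markers to 35.7, 23.5, 14.0, 22.3 and 14.98 TPM, and B and T cell markers to 4.59, 3.12, 3.56, 2.20 and 5.04 TPM. No gene of these lists was called by edgeR or DESeq2. Whether muscle was carried over with the fat pad in dissection, and the part of each of these cell types in the muscle gene levels, was not tested.

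**Figure D5:**
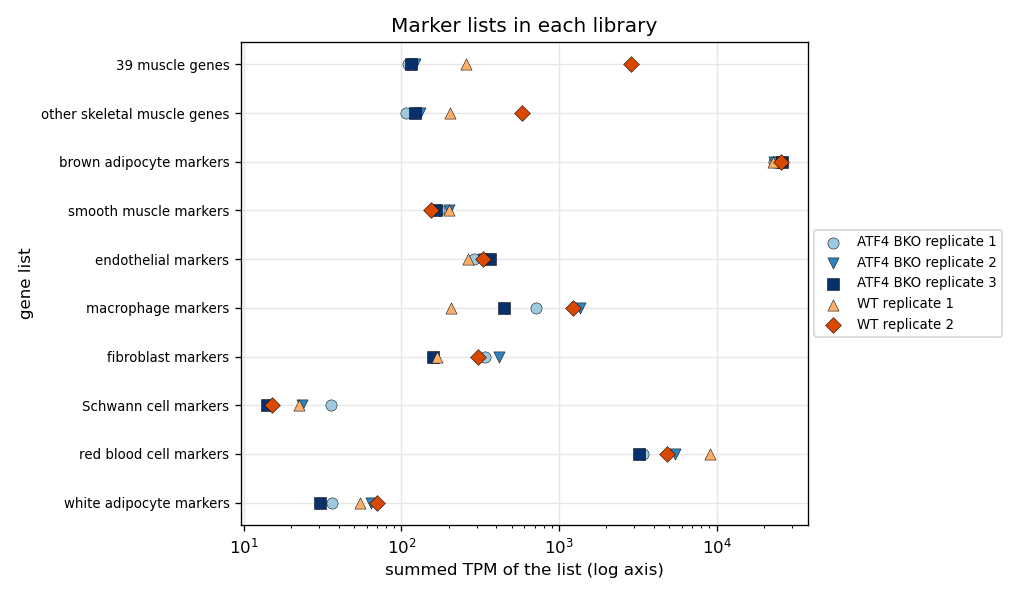
Summed TPM (log axis) of the 39 muscle genes, 54 further skeletal muscle genes and 8 marker lists of other cell types, 1 point per library. The muscle genes span 110 to 2879 TPM and the brown adipocyte markers 22660 to 26050 TPM.

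Of 6 genes that brown fat and muscle both use, 2 were lower in every ATF4 BKO library than in both WT libraries in CPM, beside 10.6% of all genes tested, and edgeR and DESeq2 called none. Without ATF4 BKO replicate 1 the count was also 2, beside 16.4%. Mb, the oxygen store myoglobin of muscle and brown fat, was at 438.5, 105 and 414 TPM in ATF4 BKO and at 18.4 and 220 TPM in WT. It was lowest in WT replicate 1 and did not follow the sarcomere genes in either direction. In ATF4 BKO replicate 2, where the sarcomere genes were low, Mb was at 105 TPM. That was below the 220 TPM of WT replicate 2, where the sarcomere genes were highest. Cox7a1 and Cox8b, muscle isoforms of cytochrome oxidase that brown adipocytes also express, were at 2630 to 3134 and 2994 to 4131 TPM over the 5 libraries. Atp2a2, the calcium pump of slow fibres, heart and many other cells, was at 131, 137 and 126 TPM against 141 and 172 TPM, in TPM the order of the sarcomere genes at a far smaller distance. Slc25a4, the ADP/ATP carrier of muscle, and Ckb, the brain-type creatine kinase, were lower in every ATF4 BKO library, at 133 to 169 and 272 to 515 TPM, against 274 and 230.5, and 868 and 594.5 TPM, in WT.

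The genes outside the set whose levels across the 5 libraries were most like the mean of the 39, among 11985 with at least 100 counts in a library, were Myom2, 3425401B19Rik, Ckmt2, Apobec2, Ddit4l, Nrap, Eef1a2, Hspb7, Mypn and Sptb. Their Pearson correlations on log2(CPM + 1) ran from 0.99511 to 0.99901 over 5 libraries, of which WT replicate 2 weighs most. Myom2, the fast M-band protein, was at 0.0431, 0.335 and 0.0103 TPM in ATF4 BKO and at 1.10 and 16.3 TPM in WT. Ckmt2, the creatine kinase of muscle mitochondria, was at 0, 0.164 and 0 TPM against 1.25 and 31.1 TPM. Of the 10 genes, 5 were on the list of further muscle genes.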

How the data were processed

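RNA of interscapular BAT from 5 mice was sequenced as stranded mRNA libraries. The authors counted reads with Kallisto 0.45.0 and deposited, for each mouse, estimated counts per transcript, not normalized between mice. The deposited tables also hold TPM, which the authors' counter computed from these counts and the transcript lengths. The submitters' processing notes name mm10 as the build, and the transcript annotation is not given in the sources used here. Gene counts from an aligner, which the paper also describes, were not analysed here.

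Estimated counts and TPM were summed per gene with GENCODE M21 (GRCm38), to which 138191 of 141450 transcripts matched by identifier; the others held 1.16% to 1.29% of the counts of a library. Gene counts were rounded to whole numbers. Total counts ranged from 24698337 to 32452751, and no library repeated another. Genes that reached 10 counts in 2 or more libraries were tested with edgeR 4.0.16 (TMM, quasi-likelihood test, genotype alone, Benjamini-Hochberg adjustment, threshold 0.05) in R 4.3.3. CPM used TMM-scaled library sizes. The alternatives were DESeq2 1.42.0, limma 3.58.1 on log2(TPM + 1) and log2(TPM + 0.1), no filter, library totals, a replicate block, a term for the sample-name prefix and leaving out each mouse. DESeq2 without each mouse, and the slow share without troponin C, were chosen after seeing the data. The edgeR and DESeq2 code was tested on simulated data. Shared reads were gauged as the share of 31-base words of a gene's transcripts that occur in other genes.

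The 39 genes and the marker lists were chosen with earlier results of these data known. Genes named in the text are the 39, genes of the lists (214 of 215 matched), Atf4, the sex-linked genes and the 10 genes most like the mean of the 39. The promoters shown belong to the 3 genes with the highest TPM in WT replicate 2. Individual genes singled out from a list were chosen after their values were seen.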

Additional observations from a re-analysis of the deposited data

How the results depend on the processing

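With edgeR, 1 gene was called in all and 0 of the muscle genes. DESeq2 called 121 and 15, edgeR without the filter on low counts called 8 and 3, and library totals in place of TMM changed neither count. With limma, 0 genes were called on log2(TPM + 1) and 2 on log2(TPM + 0.1), and 0 muscle genes in either. Leaving out each mouse in turn, edgeR called between 0 and 23 genes and between 0 and 12 muscle genes, the highest counts both without WT replicate 1. In edgeR and DESeq2 fits without a WT mouse, the lone WT mouse left is assumed to vary like the ATF4 BKO mice. DESeq2 called 120 genes and 8 muscle genes without ATF4 BKO replicate 1, 205 and 20 without ATF4 BKO replicate 2, 56 and 7 without ATF4 BKO replicate 3, 74 and 19 without WT replicate 1, and 531 and 5 without WT replicate 2. The cause of these changes was not tested.

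The median difference of the 36 tested muscle genes was -6.14, and -5.36 over the 27 with 10 counts in an ATF4 BKO library, a choice made after seeing the data, since the filter fixed the sign of the others. Over the 36 it was -2.35 and -3.72 with limma on log2(TPM + 1) and log2(TPM + 0.1), which shrink the differences of low genes, -1.64 within prefix S1, and between -7.54 (without ATF4 BKO replicate 2) and -1.96 (without WT replicate 2, where only the 27 were tested) on leaving out a mouse. Over the 27 it was -2.31 and -3.45 with limma, -1.29 within prefix S1, and between -6.66 and -1.96 without the same mice. Without ATF4 BKO replicate 2 the filter kept part of the 27 through the WT libraries alone, which fixed their sign in the -6.66. The median over all genes, 0.0077 with edgeR, became -0.12 and -0.17 with limma. Between 23 and 33 muscle genes were lower in every ATF4 BKO library when a mouse was left out, of 27 tested without a WT mouse and 36 otherwise, beside 15.2% to 29.3% of all genes. Without WT replicate 2, 3 genes changed sign, Myl3 to 0.082 (lowest -2.47, without WT replicate 1), Tnnt1 to 0.86 (-2.88) and Tnnc1 to 1.42 (-1.49), and no other muscle gene did so in any setting.

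Replicate numbers recur in both genotypes, but deviations of same-numbered mice correlated at 0.0473 and 0.2, and nothing states a pairing. With the replicate block, 0 genes were called and the median was -5.38, with 1 residual degree of freedom. With the prefix as a term, 0 genes were called and the median was -4.53. Without the troponin C pair, the slow share of the summed TPM of the pairs was 5.67%, 5.07%, 1.93%, 4.69% and 5.93% in the order of the libraries. With 12 counts of myosin heavy chains in a library, fibre type could not be resolved in ATF4 BKO replicates 1 and 3.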

Other observations

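Some genes of muscle did not follow the level of the sarcomere genes. Trim63, the muscle ubiquitin ligase MuRF1, was at 0.0854, 6.41 and 0.230 TPM in ATF4 BKO replicates 1, 2 and 3 and at 0.502 and 5.95 TPM in WT replicates 1 and 2, so that ATF4 BKO replicate 2 exceeded WT replicate 2 although its muscle genes summed to 122 TPM against 2879 TPM. Fbxo32, the other ligase of muscle wasting, was at 0.804, 1.28, 0.820, 0.568 and 2.00 TPM in the same order. Actc1, the cardiac alpha-actin, was highest in WT replicate 1 at 0.844 TPM, against 0.177 TPM in WT replicate 2 and at most 0.132 TPM in ATF4 BKO.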
